A study of Gallus gallus with 4 samples.

Results

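The W chromosome is the chromosome that only female birds carry. Every exon part that the count table placed on chromosome W was taken, and the counts were summed per gene identifier. This gave 729 exon parts of 220717 in 140 genes of 24513. The RNA came from cranial headfolds of Special Black chick embryos (Gallus gallus, Hamburger-Hamilton stage 8-9), pooled by 23. Alcohol embryos received 0.43 mmol ethanol (52 mM for 90 min) and control embryos received isotonic saline, and headfolds of both were collected 6 hr after exposure began. Alcohol RNA was sequenced in lanes 5 and 6 of one run and control RNA in lanes 6 and 7 of another, so effects of treatment and of run cannot be told apart. The series' text speaks of 2 samples per group, while the labels distinguish lanes alone, and it is not known whether each lane held a pool of its own.

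In birds the female is the heterogametic sex, with one Z and one W chromosome, while the male carries a pair of Z chromosomes and no W. The genes that remain on the chick W chromosome mostly have a relative on Z, are broadly expressed, and are thought to have been kept because their dose matters. RNA from W therefore comes from the females of a mixed pool, and expression from Z is on average higher in males, since birds lack a chromosome-wide compensation of Z dose. Near-identical copies on Z and W make counts of such genes uncertain, because short reads can align to either copy. The sex of the embryos is not given in the labels.

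The lanes held 15388474 and 16991925 counts for alcohol, and 20951322 and 20861872 counts for control. The mitochondrial genome (MT) took 33.3% and 32.9% of the counts in the alcohol lanes, against 44.2% in each control lane, so counts per 1000000 counts (CPM) are given without MT throughout. The control lanes differed from each other by close to sampling noise over 16639 genes (chi-square per degree of freedom 1.04) and were summed to 1 library. A larger difference (5.66) kept the alcohol lanes apart, as 2 libraries. The tests thus had n = 2 alcohol libraries and n = 1 control library. Their p-values measure spread between the alcohol lanes, which may be technical, and not spread between embryos or pools.

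The W exon parts ran from base 31988 to base 5156723 of chromosome W in Gallus gallus 5.0 and covered 177096 exonic bases. A W gene had a median of 2 exon parts and 984 exonic bases, against 5 parts and 1257 bases for genes of Z and 7 parts and 1596 bases for genes of the numbered autosomes. There were 27 W genes with a single exon part, and the most divided had 42. The plus strand held 67 genes and the minus strand 73. The span from first to last exon part overlapped that of another W gene for 139 of the 140, and 134 of these overlapped a gene on the other strand. Reads were counted without strand, and fragments over several exon parts were left unassigned. Where exons of both strands coincide, reads cannot be given to a strand and counts can be lost. The identifiers of the W genes could not be paired with gene names, and the genes are described by position.

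Transcripts from W were detected in both pools. Over the 4 lanes, 131 of the 140 W genes had at least 1 count, 9 had none, 82 had at least 10, 23 had at least 100 and 4 had at least 1000. In single lanes, 107 and 116 W genes had a count in the alcohol lanes, against 116 and 110 in the control lanes. The share of genes with a count, 93.6% on W, was 78.7% on Z and 93.0% on the autosomes. Most W genes were detected at a low level. Per kilobase of exon, the detected W genes had a median of 0.442 CPM, against 2.74 on Z and 6.44 on the autosomes. A count of 0 allows a level of up to 0.292 and 0.263 CPM in the alcohol lanes and 0.257 and 0.258 CPM in the control lanes (3 counts, counting error only). This holds only for genes whose exons do not coincide with those of another gene. There were 6 W genes with counts in the alcohol lanes alone and 10 with counts in the control lanes alone, none with more than 5 counts, so no presence or absence between the groups was detectable at this depth. Of the 729 exon parts, 505 had a count and 224 had none. The 223 parts shorter than the read of 75 bases held 723 of the 16252 W counts (4.45%).

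In CPM without MT, W was lower in both alcohol lanes than in both control lanes. The W exon parts summed to 3433 and 3582 counts in the alcohol lanes, against 4654 and 4583 counts in the control lanes. This was 334 CPM (95% exact Poisson interval 323 to 346) in alcohol lane 5 and 314 CPM (304 to 325) in alcohol lane 6. The control lanes had 398 CPM (387 to 410) in lane 6 and 394 CPM (382 to 405) in lane 7. The W counts per 1000000 autosomal counts were 372 and 352 in the alcohol lanes, against 454 and 449 in the control lanes. The counting intervals of the groups did not overlap. These intervals, here and below, cover counting error only and treat reads as independent. Reads made by PCR are not independent molecules, so the intervals may be too narrow even for counting error.

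**Figure D1:**
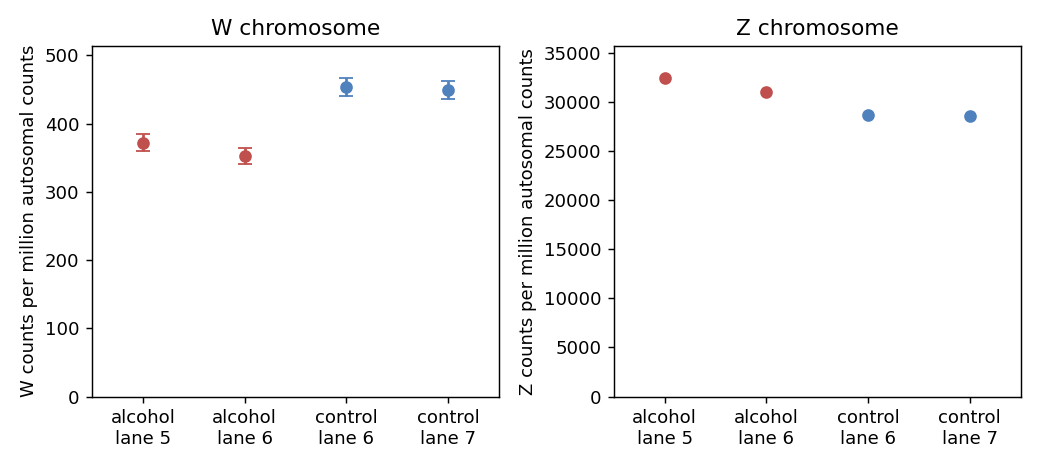
Counts on W (left, with 95% exact Poisson intervals) and on Z (right), as counts per 1000000 autosomal counts, in each lane, 1 point per lane, alcohol in red and control in blue. W is at 372 and 352 in the alcohol lanes against 454 and 449 in the control lanes, and Z is at 32444 and 30952 in the alcohol lanes against 28666 and 28575 in the control lanes.

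The W over autosome ratio of alcohol over control was 0.801 (95% exact conditional interval 0.777 to 0.827), a log2 change of -0.32. It was 0.824 for alcohol lane 5 and 0.781 for alcohol lane 6, each set against the summed control lanes. Between the lanes of a group the ratio was 1.06 (1.01 to 1.11) for alcohol lane 5 over lane 6 and 1.01 (0.971 to 1.05) for control lane 6 over lane 7. The difference between the groups was thus larger than that between lanes of a group. With 2 lanes against 2, an exact two-sided permutation test cannot go below p = 0.333, and none is given. The ratio depends on what W is set against. With MT counts in the denominator it was 0.981 (0.951 to 1.01), since the share of MT counts also differed between the groups.

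Z moved the other way. The Z over autosome ratio of alcohol over control was 1.11 (1.102 to 1.110), at 1.13 for alcohol lane 5 and 1.08 for alcohol lane 6. Of the alcohol lanes, lane 5 had the higher value for both W and Z.

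The ratio bears on the share of female embryos only through assumptions that were not tested here. Assume that every W count came from female embryos and that each female gave the same amount of W RNA in both pools. Assume also that every embryo, of either sex, gave the same amount of autosomal RNA. The ratio of 0.801 would then be the ratio of the female shares, alcohol over control. If each group was a single pool of 23, which is not known, 1 embryo is 4.35% of it. Under these assumptions 15 pairs of whole embryos lie within the interval. Among them are 9 females in the alcohol pool against 11 in the control pool, 8 against 10 and 12 against 15. The interval covers counting error alone. The pairs also rest on the summed ratio, while the ratios of the 23 W genes with at least 100 counts ran from 0.331 to 1.24. The counting interval held 0.801 for 12 of these genes, lay above it for 5 and below it for 6. The ratio was 0.753 with DESeq2 size factors and 0.981 with MT counts in the denominator, which would go with other pairs. A control pool at 50% females would go with 40.1% in the alcohol pool (9.22 embryos against 11.5). If the control pool were wholly female, the alcohol pool would be at 80.1% (82.7% at the upper bound). The share of females in either pool cannot be obtained, because no pool of known sex was measured. In pooled tissue, fewer female embryos and less W RNA per female cannot be told apart, and neither can be told apart from the sequencing run.

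A few small autosomes also had low ratios. Among 34 assembled chromosomes and linkage groups, W had the third lowest ratio and Z the highest. The 31 autosomes ran from 0.771 (chromosome 32) over a median of 0.982 to 1.07 (chromosome 9), and chromosomes 32 and 33 (0.797) lay below W. Chromosomes 30 (0.838), 16 (0.858) and 25 (0.861) came next after W, and the other autosomes were at 0.908 or more. Unplaced scaffolds were at 0.766. Of the 31 autosomes, 20 had a lower value in alcohol lane 5 than in lane 6, and the others, like Z, had a higher one. Of the 12 chromosomes with a ratio under 0.95, all but W had the lower value in lane 5. Chromosome 32, for example, was at 0.665 in lane 5 and 0.867 in lane 6. The part of chromosome-wide differences in the W ratio was not tested.

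**Figure D2:**
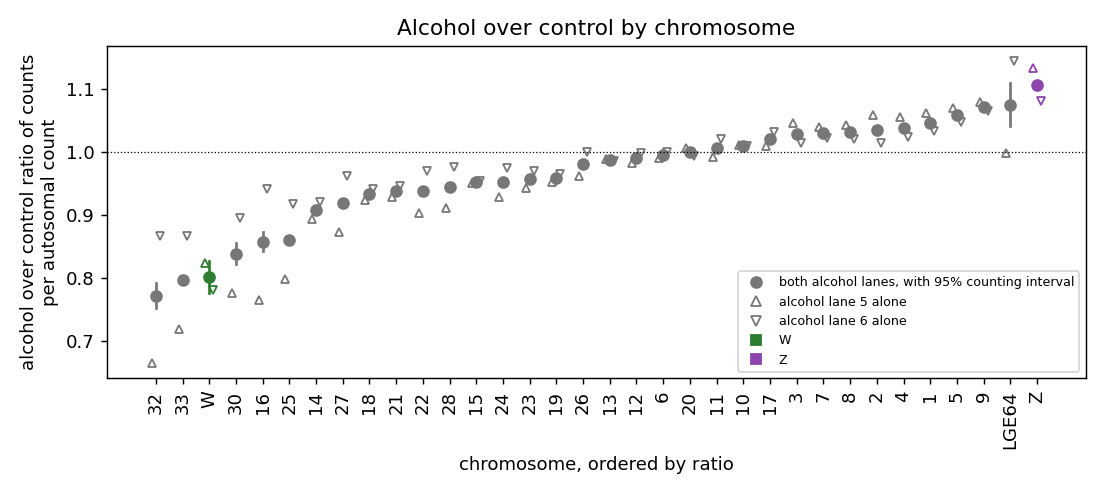
Ratio of alcohol over control of the counts on each assembled chromosome per autosomal count, ordered from low to high, with 95% counting intervals (filled points) and the value of each alcohol lane (triangles). W (0.801) comes after chromosomes 32 and 33, and Z (1.11) is at the right end.

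A few genes carried most of the W signal. The W gene with the most counts held 28.0% of the W counts, the 10 highest held 69.5%, and 32 genes held 90%. The 10 highest are numbered here by their summed CPM. Of these, 6 passed the gene-level test as lower in alcohol and 4 did not pass. Of the 6, only W gene 1 also passed DESeq2's Wald test.

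W gene 1 (chromosome W, 3066295 to 3085742, minus strand) had 86.5 and 86.8 CPM in the alcohol lanes, against 113 and 115 CPM in the control lanes. Both alcohol lanes lay below both control lanes, and the fitted log2 change was -0.49 (SE 0.15, adjusted p = 0.0227, edgeR's quasi-likelihood fit, Benjamini-Hochberg over 18062 genes). Per kilobase it was also the highest W gene, at 51.5 CPM over the lanes. Its level was not spread evenly over its 19 exon parts, as the part of 508 bases next to the 3′-most part held 68.2% of its counts.

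W gene 2 (5058576 to 5156723, minus strand) had 26.0 and 25.1 CPM in the alcohol lanes, against 27.1 and 25.4 CPM in the control lanes. W gene 3 (4303239 to 4411443, minus strand) had 29.3 and 22.8 CPM in the alcohol lanes, against 24.2 and 24.0 CPM in the control lanes. The alcohol lanes of gene 3 lay on either side of the control lanes. Neither gene passed the test (log2 change -0.13, SE 0.18, for gene 2 and 0.02, SE 0.19, for gene 3). The sign of gene 3 turned with DESeq2 size factors and without alcohol lane 5.

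W gene 4 (1442287 to 1466769, plus strand) had 20.3 and 18.2 CPM in the alcohol lanes, against 29.9 and 27.8 CPM in the control lanes. The change was -0.68 on the log2 scale (SE 0.18, adjusted p = 0.00954, edgeR). W gene 5 (4902847 to 5015333, plus strand) had 17.6 and 14.7 CPM in the alcohol lanes, against 21.1 and 21.8 CPM in the control lanes. W gene 6 (192483 to 241426, minus strand) had 14.9 and 14.8 CPM in the alcohol lanes, against 19.6 and 19.1 CPM in the control lanes. In these 3 genes each alcohol lane was below each control lane, and genes 5 and 6 fell by 0.50 (SE 0.20, adjusted p = 0.0684, edgeR) and 0.48 (SE 0.19, adjusted p = 0.0823, edgeR) on the log2 scale. Gene 5 no longer passed without control lane 7 (adjusted p = 0.114, edgeR), and gene 6 no longer passed without control lane 6 (adjusted p = 0.118, edgeR). With library size alone neither passed (adjusted p = 0.156 for gene 5 and 0.174 for gene 6, edgeR).

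W gene 7 (2000281 to 2003728, plus strand) is the single combined identifier on W, under which 2 overlapping genes share their counts. It had 8.57 and 8.16 CPM in the alcohol lanes, against 13.2 and 13.3 CPM in the control lanes (log2 change -0.76, SE 0.21, adjusted p = 0.0104, edgeR). W gene 8 (1953107 to 1954773, minus strand), which has 401 exonic bases, had 5.94 and 8.07 CPM in the alcohol lanes, against 12.93 and 12.97 CPM in the control lanes (log2 change -0.97, SE 0.22, adjusted p = 0.00227, edgeR). These 2 had the largest falls of the 10. Per kilobase, gene 8 (25.2 CPM over the lanes) was second to gene 1, before gene 4 (12.3) and gene 7 (11.6).

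W gene 9 (3152774 to 3287030, minus strand) had 9.55 and 8.42 CPM in the alcohol lanes, against 11.2 and 9.27 CPM in the control lanes. W gene 10 (99100 to 170596, plus strand) had 8.18 and 8.77 CPM in the alcohol lanes, against 7.88 and 7.90 CPM in the control lanes. The groups overlapped for gene 9, while for gene 10 the alcohol lanes were the higher. Neither passed the test (log2 change -0.29, SE 0.21, for gene 9 and 0.01, SE 0.22, for gene 10), and the sign of gene 10 turned under several alternatives.

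**Figure D3:**
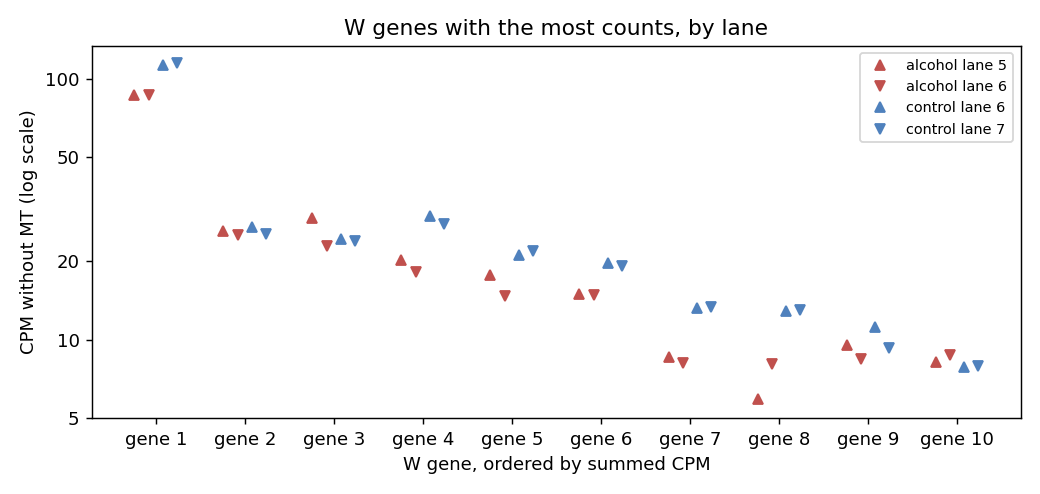
CPM without MT (log scale) of the 10 W genes with the highest summed CPM, 1 point per lane, alcohol in red and control in blue. Gene 1 stands at 86.5 and 86.8 CPM in the alcohol lanes against 113 and 115 CPM in the control lanes, the alcohol lanes lie below the control lanes in genes 1, 4, 5, 6, 7 and 8, and genes 2, 3, 9 and 10 lie close together or overlap.

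Over the W genes that could be tested (82, those with at least 10 counts over the libraries), 14 were lower and 1 was higher in alcohol at a false discovery rate of 0.1. Of all 18062 genes tested, 11.3% were lower and 15.4% were higher. On W the shares were 17.1% lower and 1.22% higher, on Z 4.01% and 25.1%, and on the autosomes 9.02% and 17.2%. DESeq2's Wald test gave an adjusted p to 16 of the 82 W genes, of which 1 (W gene 1) passed, as lower. Its own filter on low counts left 9 of the 15 genes that passed in edgeR without an adjusted p. The other 6 of the 15 were the described W genes that passed in edgeR. Apart from W gene 1, they did not pass in DESeq2 (adjusted p from 0.104 to 0.361, Wald test). An unadjusted p under 0.05 was found for 6 of the 82 W genes with DESeq2's Wald test, against 17 with edgeR. Of all 18062 genes, DESeq2 called 736 lower and 955 higher, so its share of lower genes was not larger on W. With every lane its own library in edgeR, 16 W genes were lower and 1 higher, against 3598 and 4113 of all 18062 genes. The share of lower genes was then not larger on W than over all genes. The W genes that passed in edgeR also changed with the alcohol lane left out. In those 2 refits the spread came from the control lanes, and only the median log2 change is given. Without alcohol lane 5 it was -0.35 for the W genes, against 0.0020 for all genes. Without alcohol lane 6 it was -0.23 for the W genes, against -0.0062 for all genes. The other 58 W genes had too few counts for the test.

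The median log2 change was -0.35 for the W genes tested, against 0.20 for Z, 0.04 for the autosomes and 0.01 for all genes tested, and 56 of the 82 W genes had a negative value. The W median was -0.38, -0.29 and -0.31 for genes with 10 or more but under 100, 100 or more but under 1000, and 1000 or more counts, against 0.10, 0.19 and -0.04 for autosomal genes in the same ranges. Scaling by library size alone moved the median of all genes to 0.10 and that of W to -0.26. The 14 genes that were lower changed by -0.48 to -1.89 on the log2 scale, and 8 of them lay outside the 10 described above, with 29 to 192 counts. The smallest p-values among them belonged to ENSGALG00000044027 (4903629 to 5044816, plus strand) and ENSGALG00000044960 (4454112 to 4455392, plus strand). ENSGALG00000044027 had 17 and 21 counts in the alcohol lanes, against 52 and 69 counts in the control lanes (log2 change -1.65, SE 0.30, adjusted p = 2.72e-04, edgeR). ENSGALG00000044960 had 32 and 21 counts in the alcohol lanes, against 79 and 60 counts in the control lanes (log2 change -1.37, SE 0.29, adjusted p = 0.00122, edgeR). In both, each alcohol lane was below each control lane. The log2 change of ENSGALG00000044960 was -1.02 without alcohol lane 6 and -1.79 without alcohol lane 5. The span of ENSGALG00000044027 overlaps that of W gene 5 on the same strand. The single gene that was higher, ENSGALG00000044367 (4789024 to 4927012, plus strand), had 9 and 7 counts in the alcohol lanes, against 1 and 3 counts in the control lanes (log2 change 1.96, SE 0.73, adjusted p = 0.0568, edgeR), and rested on 20 counts. Its log2 change was 1.68 without alcohol lane 5. Without control lane 6 the change was 1.39, and the gene then no longer passed.

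**Figure D4:**
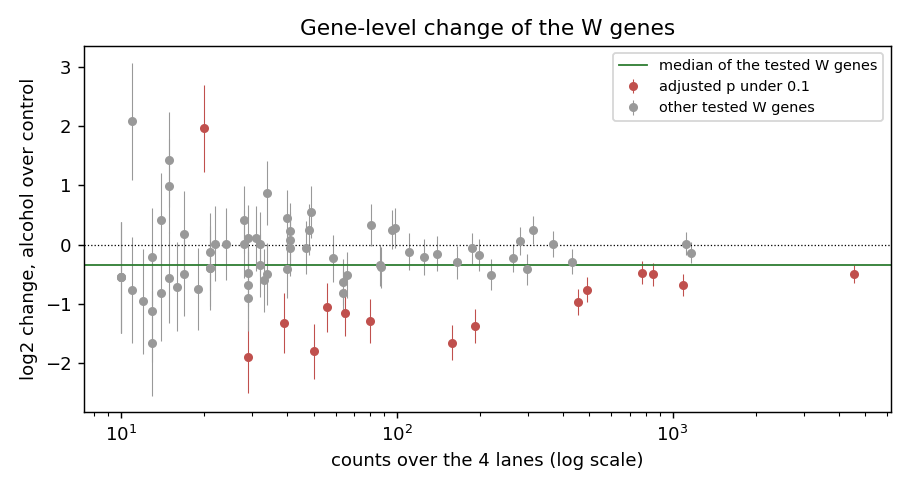
Fitted log2 change (alcohol over control, edgeR) of the 82 W genes tested against their counts over the 4 lanes (log scale), with bars of 1 SE, genes with an adjusted p under 0.1 in red and the median of -0.35 as a line. The 14 lower genes lie between -0.48 and -1.89, and the single higher gene has 20 counts.

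Ratios differed among W genes by more than the counting error of independent reads. Among the 23 W genes with at least 100 counts, the ratio of alcohol over control relative to autosomes ran from 0.331 to 1.24 with a median of 0.857. The counting interval lay below 1 for 10 of them, held 1 for 13 and lay above 1 for 0. Of 11133 autosomal genes with as many counts, the interval lay below 1 for 25.7% and above 1 for 43.2%. The interval held the summed W ratio of 0.801 for 12 of the 23 genes, lay above it for 5 and below it for 6. These intervals hold no spread between lanes, and the ratios of the autosomal genes ran from 0.269 to 11.2. By position, W was divided into 3 stretches of equal length. The genes centred in them had, in order along the chromosome, ratios of 0.780 (0.730 to 0.834), 0.741 (0.706 to 0.777) and 0.899 (0.853 to 0.948). W gene 1, with a ratio of 0.743, held 4543 of the 7013 counts of the second stretch. Without W gene 1 the ratio of the whole W chromosome was 0.825 (0.795 to 0.856).

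At the level of exon parts, 22 of the 197 W parts tested were lower and 1 was higher in alcohol. Of all 97993 exon parts tested, 8.45% were lower and 5.65% were higher. This balance depended on the scaling: with library size alone, 3200 of all parts were lower and 15226 higher, and 14 W parts were lower and 2 higher. The median log2 change of the W parts tested was -0.33 with TMM, against 0.04 for all parts, and -0.00026 with library size alone, against 0.37 for all parts, so W parts lay below the median of all parts under both. The 22 parts belonged to 15 genes. With either alcohol lane left out the test called 0 of all exon parts, on W and elsewhere (0 of 87663 without lane 5 and 0 of 85780 without lane 6, with the spread taken from the control lanes), which says nothing about W. The median log2 change of the W parts was -0.45 without lane 5 and -0.30 without lane 6, against 0.02 for all parts in each. DESeq2 called 5 of the 197 W parts, all lower, against 3948 lower and 579 higher of all 97993 parts. The share called lower was thus not larger on W. Only 11 of the W parts had an adjusted p in DESeq2. The parts named next were chosen after their values were seen. The part of 508 bases of W gene 1 (3066297 to 3066804) had 54.5 and 54.4 CPM in the alcohol lanes, against 83.0 and 81.7 CPM in the control lanes, a log2 change of -0.93 (SE 0.20) with TMM and of -0.60 with library size alone. Another part of the same gene, of 308 bases (3073795 to 3074102), had 15.0 and 15.6 CPM in the alcohol lanes, against 15.6 and 17.1 CPM in the control lanes, and did not pass the test. Of these 2 parts, the one near the 3′ end had the larger difference. No part of W gene 1 passed the test of a part relative to its gene, given below. In W gene 7, part 15 (2003124 to 2003261) had 47 and 46 counts in the alcohol lanes, against 119 and 130 counts in the control lanes (log2 change -1.65). Part 13 of the same identifier (2002380 to 2002478) had 16 and 15 counts in the alcohol lanes, against 4 and 2 counts in the control lanes (log2 change 2.11), and was the 1 higher part.

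Lower W parts lay mostly near the 3′ end of their gene. Of the 22, 16 had their middle within 500 exonic bases of the 3′ end, against 69 of the 197 tested. Their median distance was 185.5 bases, and that of the W parts tested and not called was 901 bases. The position of the parts called lower on other chromosomes was not examined, so this cannot be called particular to W. Parts with more counts pass the test more readily, and the called parts and the others were not matched by counts. The share of W counts within 500 bases was 50.7% in alcohol and 58.7% in control. The autosomes moved in the same direction, with 31.2% in alcohol and 36.3% in control. When W and autosomal parts were matched by distance, the W over autosome ratio was 0.808 (0.774 to 0.843) within 500 bases, 0.901 (0.851 to 0.954) from 500 to 1500 bases and 0.835 (0.771 to 0.904) beyond 1500 bases. It was below 1 at each distance, and each value lay above the unmatched ratio of 0.801. The part of distance from the 3′ end in the unmatched ratio was not tested. The ranges of distance were chosen after the data were seen.

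**Figure D5:**
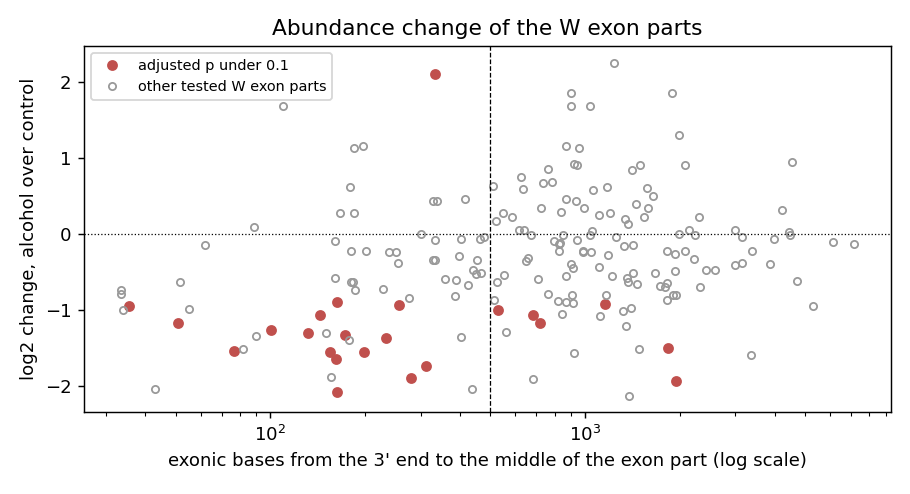
Fitted log2 change (alcohol over control, edgeR) of the 197 W exon parts tested against the exonic distance of their middle from the 3′ end of the gene (log scale, in bases), parts with an adjusted p under 0.1 in red, with a dashed line at 500 bases. Of the 22 lower parts, 16 lie left of the line.

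Exon usage, the count of a part relative to its gene, was tested for 159 W parts. Of these, 3 had a higher usage in alcohol and 0 a lower usage by edgeR's diffSpliceDGE, and 19 had an unadjusted p under 0.05 in either direction. Of all 94263 parts tested, 4.35% had a higher and 0.509% a lower usage, and 14919 had an unadjusted p under 0.05 by the same test. The share with such a p was thus not larger on W. The 3 parts were parts 3 and 13 of W gene 7 and part 14 of W gene 4. Part 13 of W gene 7 had a log2 usage change of 3.07 (adjusted p = 6.49e-04, edgeR diffSpliceDGE). Part 3 (2000306 to 2000394), with 8 and 8 counts in the alcohol lanes against 4 and 2 counts in the control lanes, had a change of 2.12. Part 14 of W gene 4 (1446183 to 1446331), with 12 and 11 counts in the alcohol lanes against 10 and 3 counts in the control lanes, had a change of 1.51. The last 2 did not pass the test of abundance, and all 3 rest on fewer than 40 counts.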

How the data were processed

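The authors trimmed the reads, aligned them with Bowtie2 to Gallus gallus 5.0 (Ensembl) and counted fragments per exon part with featureCounts 1.5.2, without strand and with both mates mapped, and the deposited values are raw counts. Bowtie2 does not splice, and fragments over several exon parts were left unassigned. A second deposited table of exons chosen by the authors, with their own fold changes, was not used. Counts were summed per gene and per chromosome. Lanes of a group were summed where the chi-square over genes per degree of freedom was under 1.1. Features outside MT with at least 10 counts over the libraries were fitted with edgeR 4.0.16 in R 4.3.3 (TMM, quasi-likelihood, diffSpliceDGE, false discovery rate 0.1). DESeq2 1.42.0 was an alternative. The code of the tests was run on simulated data with the same spread for all features, which does not show how the tests perform on W genes. Ratios have exact conditional 95% intervals, computed with scipy 1.17.1. The genes described are the 10 W genes of highest summed CPM and, by identifier, up to 2 called in each direction with the smallest p. The members and lists were chosen with earlier results of these data known. The lists of cell type markers, W genes and their Z partners could not be checked without names, and no sequence was used here. No lane was left out.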

Additional observations from a re-analysis of the deposited data

How the results depend on the processing

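The W over autosome ratio of 0.801 had a value below 1 under the alternatives run, though with a counting interval that held 1 in 3 of them, at 0.981 (0.951 to 1.01) with MT counts in the denominator, 0.766 with TMM library sizes and 0.753 with DESeq2 size factors, and at 0.781 to 0.824 with each lane left out in turn. Alternatives chosen after seeing the data gave 0.901 for exon parts 500 to 1500 bases from the 3′ end, 0.835 beyond 1500 bases, 0.769 over autosomes 1 to 5, and 0.970 (0.941 to 1.001) over autosomes 16, 25, 30, 32 and 33, which were picked for their low ratios. Without the 15 W genes that had passed the test, a choice made by the outcome itself that supports nothing, it was 0.967 (0.924 to 1.01). The 15 W genes called became 1 with DESeq2, which gave 66 of the 82 W genes no adjusted p, and 9 to 14 with a lane left out (9 without alcohol lane 6). The 23 W exon parts became 5 with DESeq2, which gave 186 of 197 none, and 0 to 21 with a lane left out (without either alcohol lane, 0 of all exon parts were called). In DESeq2, 6 of the 15 W genes had an adjusted p, and those other than W gene 1 did not pass. With library size alone 11 W genes and 16 W exon parts passed, and W genes 5 and 6 did not. The same setting called 4687 of all 18062 genes and 18426 of all 97993 parts. The 3 parts of changed usage became 8 of 159 with every lane its own library, against 9116 of all 94263 parts. They became 5 of 44 with at least 10 counts in every library, against 5498 of all 46451 parts. The median log2 change of the W genes, -0.35, was -0.26 with library size alone and -0.35 to -0.23 with a lane left out. The uncalled W gene 3 turned to -0.0060 with DESeq2 size factors, and was at -0.18 to 0.19 with a lane left out (negative without alcohol lane 5). The uncalled W gene 10 turned to -0.0029 with DESeq2's test, -0.013 with its size factors and -0.0015 with no filter, and was at -0.038 to 0.048 with a lane left out (negative without alcohol lane 6). The cause was not tested. Of the other alternatives for named genes and parts, 129 kept direction and side of the threshold and 22 kept direction alone. No paired analysis was possible because the labels give no shared replicate numbers. Depth limits the W genes with under 10 counts, which were not tested.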
